A study of Mus musculus with 18 samples.

Results

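The Rab genes encode small GTPases of the Ras superfamily that direct vesicle traffic. They were taken as every gene in the expression table whose name is Rab followed by a number and at most a letter and a second digit, which gave 58 of 23418 genes. Names such as Rabgef1 or Rab3gap1, which belong to regulators of these GTPases, do not meet that rule. A Rab protein cycles between a membrane-bound, GTP-loaded form and a soluble, GDP-loaded form. Exchange factors load the GTP, GTPase activating proteins end the active state, and the dissociation inhibitor GDI carries the inactive protein, which is anchored in membranes by prenyl groups. Each member marks its own compartment and recruits effectors there, such as tethers, motors and lipid kinases, and myeloid cells depend on these proteins for phagosome maturation, granule release and recycling of surface receptors.

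RNA was measured in mouse leukemia cells of C57BL/6 origin that carry 1 of 3 fusions of the Mixed Lineage Leukemia protein, MLL-AF9, MLL-AF6 or MLL-AF1p. Cells of each construct were treated over 6 days with MI-2-2 at 6 µM, an inhibitor that blocks binding of menin to MLL, or with its solvent DMSO, and every culture, treated or control, held 0.25% DMSO. In these fusions the N-terminal MLL portion keeps the menin-binding site, and binding to menin helps to hold the fusion on target genes such as the Hoxa cluster and Meis1. The question the design puts is therefore what 6 days of MI-2-2 change in each leukemia, and whether the fusion partner alters that change. The 6 groups, with 3 libraries each numbered 1 to 3 in the labels, were MLL-AF9 on MI-2-2, MLL-AF6 on MI-2-2, MLL-AF1p on MI-2-2, MLL-AF9 on DMSO, MLL-AF6 on DMSO and MLL-AF1p on DMSO. All 6 share the strain, the FBS-containing IMDM medium, the change of medium on day 3 and the transformed state, so there is no group of untransformed cells. The labels do not say whether libraries of a group came from separate cultures. The p-values therefore reflect no more than the scatter of these libraries, possibly a technical one, and each leukemia is represented by 1 construct with no second, independently transformed line named.

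Expression is in RPKM, reads scaled by gene length in kilobases and by the counted reads of the library, a unit that allows levels to be compared between genes. Depth was 21180926 to 30671635 counted reads in libraries of MLL-AF9 and MLL-AF6 and 48883357 to 56304997 in those of MLL-AF1p, so the MLL-AF1p values are the more precise ones at low expression, and comparisons of MLL-AF1p with the other constructs carry that difference in depth. As a check of the labelled cell type, 4 of 5 myeloid genes sought by name were listed, and all 4 (Ptprc, Itgam, Cebpa and Cebpb) were above 1 RPKM in each group. The lymphocyte markers Ms4a1 and Cd3e were at 0 in every library. Markers of mature myeloid cells moved with treatment. The summed level of 8 monocyte and macrophage markers was 4236.2 to 5490.9 RPKM on MI-2-2 against 559.7 to 1891.9 RPKM on DMSO in MLL-AF9 cells, 9859.1 to 14072.6 against 1979.4 to 4060.5 RPKM in MLL-AF6 cells and 4133.7 to 4592.1 against 634.2 to 746.7 RPKM in MLL-AF1p cells, and 8, 7 and 8 of the 8 rose. All 6 neutrophil granule markers rose in each construct, with sums of 10649.4 to 23249.3 RPKM over the MI-2-2 libraries and 1445.8 to 2503.6 RPKM over the DMSO libraries. Their part in the results on the Rab genes was not tested, and in RNA from whole cultures fewer cells of a type and less RNA per cell cannot be told apart.

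Promoter sequences are shown first for 7 members that the results turn on. Rab7, Rab3d, Rab8a and Rab19 rose with MI-2-2 in all 3 constructs, Rab3a is 1 of the 2 members that fell in all 3, and Rab21 and Rab32 responded differently between constructs and hold the rarest motifs searched. Each run is the 250 bases before the annotated start, 5′ to 3′ on the gene's own strand, from RefSeq on build GRCm38.p6, at chr6:88045271-88045520 for Rab7, chr9:21918184-21918433 for Rab3d, chr10:115315592-115315841 for Rab21 and chr10:10558208-10558457 for Rab32, all on the minus strand, and at chr8:72160950-72161199 for Rab8a, chr6:39381103-39381352 for Rab19 and chr8:70754453-70754702 for Rab3a, on the plus strand. Where several starts are listed, as for Rab7 and Rab3a, the first was used. Capitals mark the letters of 4 motifs on either strand: the GC box GGGCGG, the CCAAT box CCAAT, TCACGTGA, the inner letters of the lysosomal gene element named CLEAR, and the core of the PU.1 site, GAGGAAGT.
Rab7: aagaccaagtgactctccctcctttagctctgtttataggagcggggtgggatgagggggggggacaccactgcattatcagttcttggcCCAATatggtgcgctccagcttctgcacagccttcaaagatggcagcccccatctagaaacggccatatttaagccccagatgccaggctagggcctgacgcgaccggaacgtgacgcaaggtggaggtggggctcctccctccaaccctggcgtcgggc
Rab3d: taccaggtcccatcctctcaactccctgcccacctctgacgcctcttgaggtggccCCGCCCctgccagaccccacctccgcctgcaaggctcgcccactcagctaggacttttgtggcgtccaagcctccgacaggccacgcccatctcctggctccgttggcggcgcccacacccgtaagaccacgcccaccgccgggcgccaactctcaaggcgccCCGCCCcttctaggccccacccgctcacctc
Rab8a: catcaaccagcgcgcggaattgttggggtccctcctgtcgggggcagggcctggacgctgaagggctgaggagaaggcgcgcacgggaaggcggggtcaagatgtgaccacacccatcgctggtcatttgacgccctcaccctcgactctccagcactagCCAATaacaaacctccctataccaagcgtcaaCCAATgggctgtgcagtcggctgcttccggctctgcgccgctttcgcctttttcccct
Rab19: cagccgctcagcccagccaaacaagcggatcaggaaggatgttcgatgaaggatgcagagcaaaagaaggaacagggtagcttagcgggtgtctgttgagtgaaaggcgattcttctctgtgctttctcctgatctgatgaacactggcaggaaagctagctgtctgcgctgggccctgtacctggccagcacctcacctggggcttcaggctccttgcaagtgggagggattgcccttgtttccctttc
Rab3a: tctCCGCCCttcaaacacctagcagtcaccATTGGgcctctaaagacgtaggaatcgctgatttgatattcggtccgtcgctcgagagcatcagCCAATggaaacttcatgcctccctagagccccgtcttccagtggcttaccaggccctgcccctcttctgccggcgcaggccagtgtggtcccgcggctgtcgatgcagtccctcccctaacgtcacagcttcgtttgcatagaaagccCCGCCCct
Rab21: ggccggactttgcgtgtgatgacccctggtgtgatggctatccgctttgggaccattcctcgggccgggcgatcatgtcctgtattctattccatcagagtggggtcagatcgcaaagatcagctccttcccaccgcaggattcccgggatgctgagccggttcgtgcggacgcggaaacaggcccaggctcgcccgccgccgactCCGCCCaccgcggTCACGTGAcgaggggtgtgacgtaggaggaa
Rab32: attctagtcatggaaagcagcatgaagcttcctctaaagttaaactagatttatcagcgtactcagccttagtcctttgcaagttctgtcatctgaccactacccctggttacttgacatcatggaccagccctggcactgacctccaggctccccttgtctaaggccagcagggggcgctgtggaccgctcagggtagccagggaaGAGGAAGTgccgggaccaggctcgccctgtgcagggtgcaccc
Rab7 holds 1 CCAAT box, Rab8a a pair of them, Rab3d a pair of GC boxes, and Rab3a 2 of each, while Rab19 holds none of these motifs in this window. Rab21 holds TCACGTGA, within the site of the lysosomal regulator TFEB, beside a GC box. Rab32 holds GAGGAAGT, letters of the site of PU.1, the regulator of myeloid genes.

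A RefSeq promoter was found for 47 of the 58 members, and none was listed for Rab1, Rab2a, Rab4a, Rab18, Rab26, Rab27b, Rab30, Rab36, Rab37, Rab38 and Rab44. Over the whole window of 300 bases (250 before and 50 after the start), a GC box was present in 33 of the 47 Rab promoters, or 70.2%, against 35.9% of 27025 promoters of all genes. CCAAT stood in 23, or 48.9%, against 37.9% of all. The letters TCACGTGA stood in 3, those of Rab5a, Rab21 and Rab24, or 6.38%, against 1.01% of all. The shorter E-box CACGTG, which lies within them, stood in 5, or 10.6%, against 7.24% of all. GAGGAAGT stood in 2, Rab2b and Rab32, or 4.26%, against 3.28%, and the AP-1 letters TGANTCA likewise in 4.26%, against 7.93%. The Rab promoters had a median GC content of 61.3% and a median of 20 CpG, against 52.7% and 7 over all promoters, and GC boxes are made of such bases. These matches are descriptions of letters, chosen with the expression results known, and they do not show binding. Unlike Rab21, the other carriers of TCACGTGA, Rab5a and Rab24, had no called response to MI-2-2 in any construct. Neither had a called difference of response between constructs.

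Rab expression was concentrated in a few genes. Of the 58 members, 46 reached 1 RPKM in at least 3 of the 18 libraries and were tested, and 29 to 32 had a group mean of at least 10 RPKM. Rab44, a large member with calcium-binding EF hands that acts in granule release of mouse mast cells, had the highest mean on DMSO in each construct. On MI-2-2 the highest mean in each construct was that of Rab7, which drives traffic of late endosomes to lysosomes. The 5 most abundant members held 45.3% of the summed Rab RPKM in MLL-AF9 cells on MI-2-2 and 46.1% on DMSO. In MLL-AF6 cells they held 46.1% on MI-2-2 and 47.5% on DMSO, and in MLL-AF1p cells 42.4% on MI-2-2 and 41.0% on DMSO. Rab5c, Rab1b and Rab7 were among the 5 in every group, and their order was not separated by their spread in MLL-AF9 DMSO cells, at 197 ± 8.61, 185 ± 3.56 and 193 ± 31.0 RPKM (mean ± SD over 3 libraries, as in every such pair below). Rab44 had 240 ± 69.9 RPKM there. In library 1 of that group Rab44, at 164 RPKM, lay below Rab7, Rab5c and Rab1b. All 58 members together took 0.512% of the counted reads on MI-2-2 and 0.483% on DMSO in MLL-AF9 cells, 0.486% and 0.551% in MLL-AF6 cells, and 0.481% and 0.491% in MLL-AF1p cells, in the same order of treatments.

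MI-2-2 changed the Rab genes in both directions in all 3 constructs. Changes were tested by limma on log2(RPKM + 0.5), which understates the change of low genes, with Benjamini-Hochberg adjustment over the 11238 genes tested, and the words rose and fell are used only for genes with an adjusted p under 0.05. In MLL-AF9 cells 17 of the 46 tested members rose and 10 fell. Over all genes tested, 28.5% rose and 27.9% fell there, and 56.4% passed in either direction, against 27 of the 46 Rab genes. In MLL-AF6 cells 12 rose and 11 fell, where 18% of all genes rose and 38.9% fell, and the 23 Rab genes compare with 57% of all genes in either direction. In MLL-AF1p cells 8 rose and 11 fell, against 19.1% and 26.3% of all genes, and 19 passed in all, against 45.4%. The 11 that fell there became 7, 6 and 6 without MI-2-2 library 1, 2 or 3 and 7 without DMSO library 2 or 3 of MLL-AF1p. The share of Rab genes that passed was near or below that of all genes in each construct. The median log2 fold change of the 46 was 0.13 in MLL-AF9 cells, where that of all genes was -0.001, -0.04 against -0.16 in MLL-AF6 cells, and 0.03 against -0.06 in MLL-AF1p cells.

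The balance of directions moved with scaling in all 3 constructs. In MLL-AF9 cells 13 rose and 10 fell with median centring, where the Rab median was 0.05, and 17 rose and 11 fell with quantile normalization. With the MLL-AF9 libraries fitted alone 12 rose and 9 fell. With each library centred on its median, 16 rose and 6 fell in MLL-AF6 cells, and with quantile normalization 15 rose and 7 fell, and the Rab median there turned to 0.04 and 0.02. In MLL-AF1p cells the split was 10 against 7 with median centring. The median of all genes moved as well, in MLL-AF6 cells from -0.159 to -0.076 and -0.097. In MLL-AF1p cells it moved from -0.058 to -0.017 with median centring, and in MLL-AF9 cells from -0.001 to -0.081. The shares of all genes that rose or fell under these scalings are not given here, so the turn cannot be read as particular to Rab genes. In at least 1 construct 41 of the 46 passed, against 84% of all genes, and the 5 that passed in none were Rab5a, Rab9, Rab24, Rab28 and Rab33b. Rab7, Rab3d, Rab8a and Rab19 rose in all 3 constructs, 4 of 46 members against 8.64% of all genes, and Rab2a and Rab3a fell in all 3, 2 of 46 against 11.4%. A change of at least 1 on the log2 scale was reached by 5 members in MLL-AF9 cells (Rab19, Rab25, Rab34, Rab42 and Rab4a), against 10.8% of all genes. In MLL-AF6 cells 3 reached it (Rab17, Rab19 and Rab44), against 9.55%, and in MLL-AF1p cells Rab19 alone did, against 6.7%. In MLL-AF9 cells the members that rose had a median of 35.7 RPKM on DMSO and those that fell 4.37 RPKM. MLL-AF1p cells showed 57.4 and 3.16 RPKM for the same sets, and MLL-AF6 cells 31.7 and 39.5 RPKM.

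**Figure D1:**
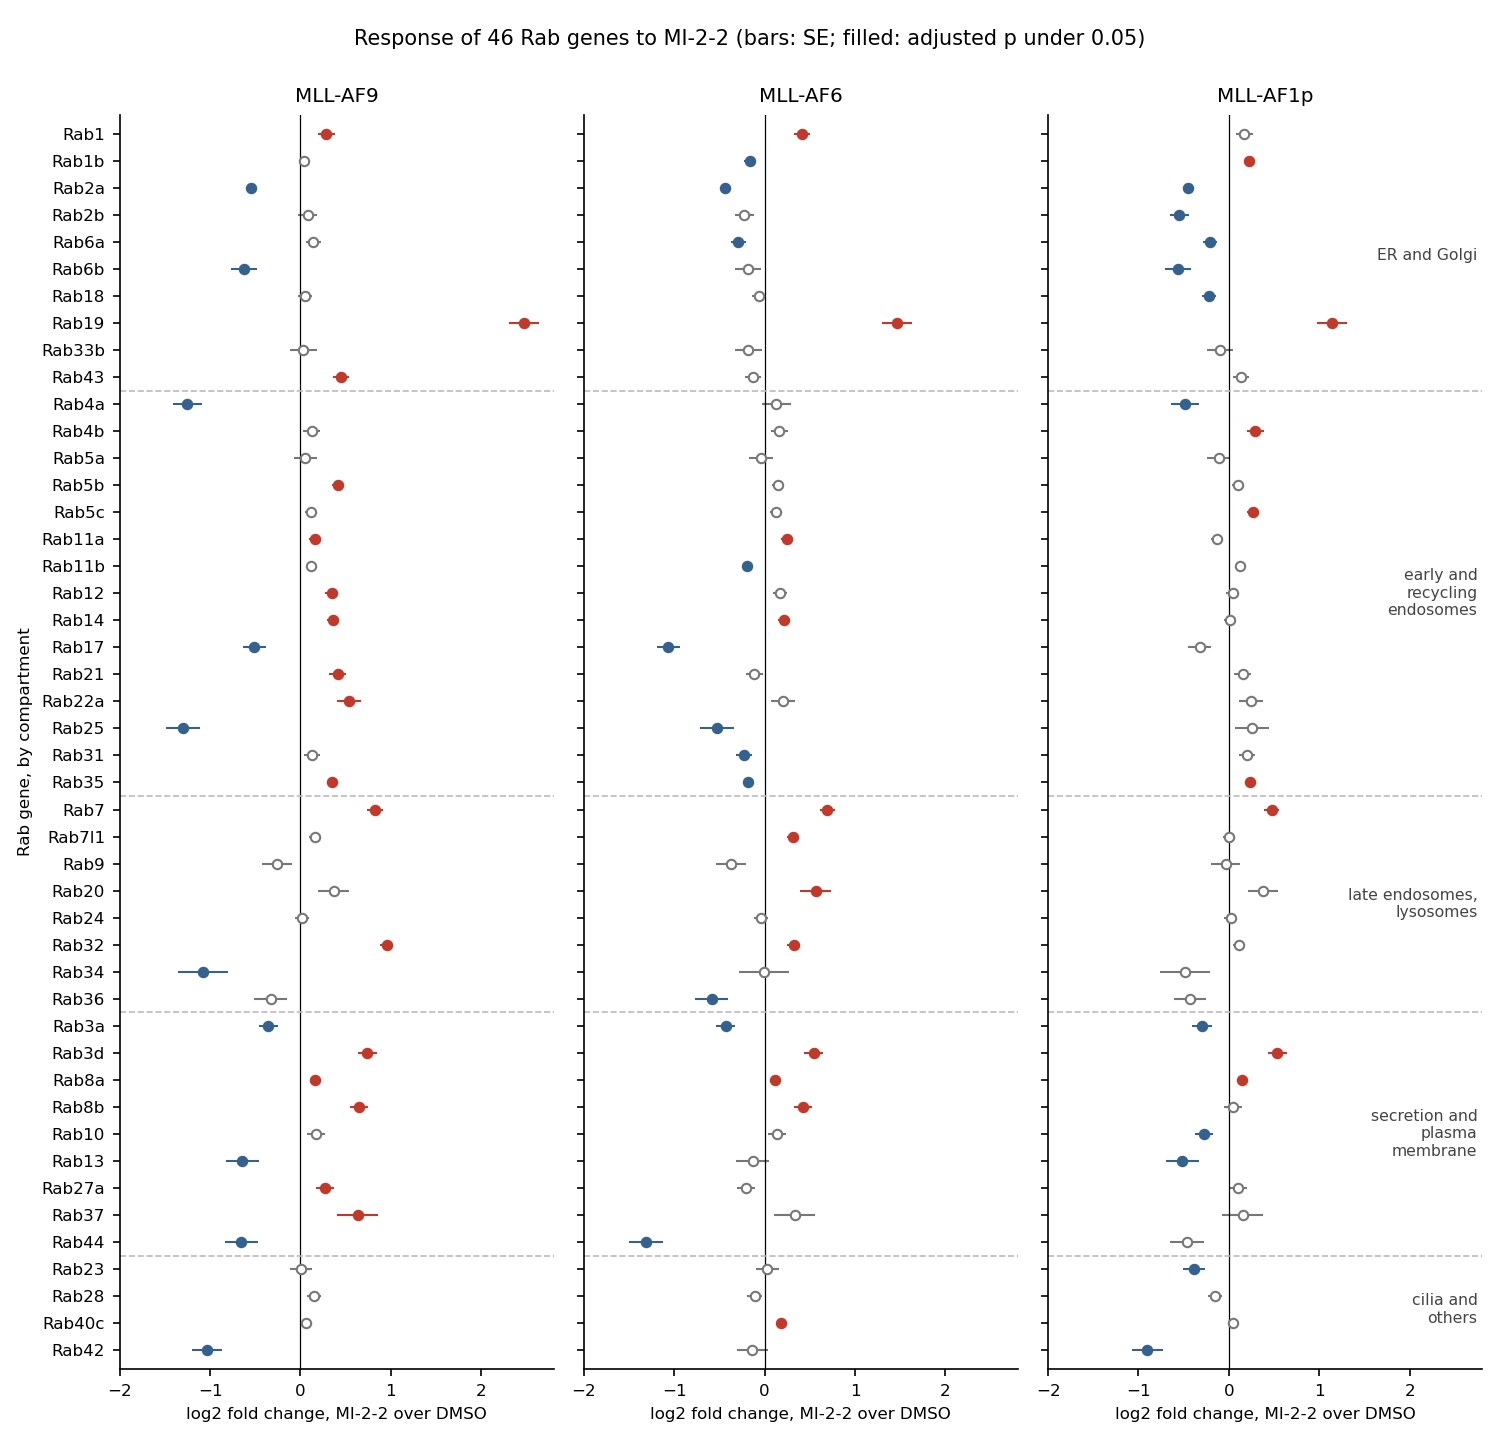
Log2 fold change of MI-2-2 over DMSO, on the log2(RPKM + 0.5) scale, for each of the 46 tested Rab genes in the 3 constructs, grouped by role, with filled marks where the adjusted p was under 0.05. Rab19 stands highest in each construct, and Rab4a, Rab25, Rab34 and Rab42 lie at or below -1 in MLL-AF9 cells while Rab17 and Rab44 do so in MLL-AF6 cells.

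Of the Rab genes that serve the endoplasmic reticulum and the Golgi apparatus, 10 were tested. The counts of this and the following roles stand beside the shares of all genes. In MLL-AF9 cells 28.5% of all genes rose and 27.9% fell. The shares were 18% and 38.9% in MLL-AF6 cells and 19.1% and 26.3% in MLL-AF1p cells. Rab1, Rab19 and Rab43 rose and Rab2a and Rab6b fell in MLL-AF9 cells. In MLL-AF6 cells Rab1 and Rab19 rose and Rab1b, Rab2a and Rab6a fell, and in MLL-AF1p cells Rab1b and Rab19 rose and Rab2a, Rab2b, Rab6a, Rab6b and Rab18 fell. The median log2 fold change of the 10 was 0.07, -0.17 and -0.15 in the 3 constructs in that order, and the MLL-AF9 value turned to -0.01 with median centring. With median centring 2 rose and 3 fell in MLL-AF1p cells.

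Rab19, a little-studied member placed at the Golgi, was the most strongly changed Rab gene. It had 3.34, 2.55 and 2.46 RPKM in MLL-AF9 cells on MI-2-2, against 0.0340, 0.0344 and 0.208 RPKM on DMSO, where only 1, 1 and 8 reads were counted. In MLL-AF6 cells it had 3.57, 3.92 and 3.09 RPKM on MI-2-2, against 1.12, 0.880 and 0.864 RPKM on DMSO. In MLL-AF1p cells the values were 1.94, 2.08 and 1.65 RPKM on MI-2-2, against 0.335, 0.831 and 0.633 RPKM on DMSO. Each MI-2-2 library lay above each DMSO library of its construct. The log2 fold changes were 2.47 ± 0.17, 1.47 ± 0.17 and 1.14 ± 0.17 (± SE) in the same order of constructs, with adjusted p of 6.31e-09, 2.47e-06 and 5.04e-05. Rab19 kept its call in every construct under each of the 29 other settings tried, as did Rab2a.

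Rab2a, which acts between Golgi and endoplasmic reticulum and in fusion with lysosomes, fell by a similar amount in each construct. Its levels were 59.9, 60.6 and 59.2 RPKM on MI-2-2, against 88.2, 87.0 and 87.7 RPKM on DMSO in MLL-AF9 cells. MLL-AF6 cells had 69.8, 73.1 and 69.2 RPKM on MI-2-2, against 98.3, 92.7 and 96.9 RPKM on DMSO, and MLL-AF1p cells 74.5, 77.4 and 72.0 RPKM on MI-2-2, against 99.3, 103 and 104 RPKM on DMSO. The spread within groups was small and no groups overlapped. The log2 fold changes were -0.55, -0.44 and -0.45, each with an SE of 0.04, and the adjusted p was 6.85e-08, 8.79e-07 and 1.23e-06. Its paralog Rab2b, about which less is known, passed in MLL-AF1p cells, where it fell, at 1.87, 2.11 and 1.97 RPKM on MI-2-2, against 3.05, 3.78 and 2.65 RPKM on DMSO (log2 fold change -0.55 ± 0.11, adjusted p = 6.08e-04). In MLL-AF6 cells Rab2b had 2.10, 2.26 and 2.34 RPKM on MI-2-2, against 2.74, 2.99 and 2.38 RPKM on DMSO (adjusted p = 0.0793), and in MLL-AF9 cells 2.91, 3.14 and 2.66 RPKM, against 2.56, 2.70 and 2.89 RPKM (adjusted p = 0.53). In a later annotation 70.9% of the exon bases of Rab2b overlap other genes on the opposite strand, and the kit does not mark strand, so part of its reads may be theirs.

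Rab1 and Rab1b, which carry out the first step from endoplasmic reticulum to Golgi, did not move together. Rab1 had 115, 112 and 115 RPKM on MI-2-2, against 109, 75.9 and 97.6 RPKM on DMSO in MLL-AF9 cells, a rise of 0.29 ± 0.09 (adjusted p = 0.0146). In MLL-AF6 cells it had 116, 111 and 119 RPKM on MI-2-2, against 88.8, 83.2 and 87.3 RPKM on DMSO, a rise of 0.41 ± 0.09 (adjusted p = 0.00132). In MLL-AF1p cells it had 106, 112 and 103 RPKM on MI-2-2, against 95.4, 93.0 and 96.2 RPKM on DMSO, and did not pass (0.17 ± 0.09, adjusted p = 0.138). The groups of Rab1 did not overlap in any construct, and without MLL-AF9 DMSO library 2, the lowest, the MLL-AF9 call was lost (adjusted p = 0.0517), as it was with median centring (adjusted p = 0.0517) and with the MLL-AF9 libraries fitted alone (adjusted p = 0.121). Without that same library, or with the MLL-AF1p libraries fitted alone, Rab1 passed in MLL-AF1p cells (adjusted p = 0.0118 and 0.00895). Rab1b went opposite ways in 2 constructs. It fell in MLL-AF6 cells, at 181, 169.5 and 178 RPKM on MI-2-2, against 212, 184 and 199 RPKM on DMSO (-0.17 ± 0.06, adjusted p = 0.0322). It rose in MLL-AF1p cells, at 140.2, 134 and 140.1 RPKM on MI-2-2, against 128, 108 and 118 RPKM on DMSO (0.23 ± 0.06, adjusted p = 0.00779). In MLL-AF9 cells it did not pass, at 192, 188 and 189.8 RPKM on MI-2-2, against 185, 188 and 181 RPKM on DMSO (0.04 ± 0.06, adjusted p = 0.594). The fall of Rab1b in MLL-AF6 cells was lost without MI-2-2 library 2 or 3 or DMSO library 1 or 3 of that construct (adjusted p = 0.106, 0.0588, 0.137 and 0.076) and with median centring (adjusted p = 0.319).

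Among the others of this role, Rab6a, which acts in traffic within and out of the Golgi, fell to 32.1 ± 0.17 RPKM on MI-2-2 in MLL-AF6 cells, against 39.5 ± 1.92 RPKM on DMSO (-0.29 ± 0.08, adjusted p = 0.00618), a call lost with quantile normalization (adjusted p = 0.0598). In MLL-AF1p cells it fell to 39.8 ± 1.06 RPKM, against 46.2 ± 4.10 RPKM on DMSO (adjusted p = 0.0462), a call lost without any 1 of 13 libraries (every MI-2-2 library, the third DMSO library of each construct and MLL-AF1p DMSO library 2, adjusted p = 0.0533 to 0.206). The MLL-AF1p call of Rab6a was also lost with no filter, median centring, quantile normalization and a constant prior variance (adjusted p = 0.0802, 0.0826, 0.055 and 0.0543). Rab6b, a paralog known mainly from neurons, fell in MLL-AF9 cells to 2.33 ± 0.22 RPKM on MI-2-2, against 3.90 ± 0.67 RPKM on DMSO, and in MLL-AF1p cells to 1.81 ± 0.07 RPKM, against 2.92 ± 0.08 RPKM (adjusted p = 0.00158 and 0.00475). Both paralogs were thus lower in MLL-AF1p cells. Rab18, found on lipid droplets and the endoplasmic reticulum, fell in MLL-AF1p cells to 49.2 ± 1.71 RPKM on MI-2-2, against 57.4 ± 5.04 RPKM on DMSO (adjusted p = 0.0337), which was lost without MI-2-2 library 1 or 3 or DMSO library 2 or 3 (adjusted p = 0.0956, 0.0948, 0.158 and 0.0568). Rab43, of the Golgi, rose in MLL-AF9 cells to 11.4 ± 0.41 RPKM on MI-2-2, against 8.26 ± 0.86 RPKM on DMSO (adjusted p = 6.33e-04), though 77.3% of its exon bases are shared with a transcript annotated later on the same strand. Rab33b, a Golgi member that binds the autophagy protein Atg16l1, stayed between 7.31 and 13.0 RPKM over the 18 libraries and passed in no construct.

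**Figure D2:**
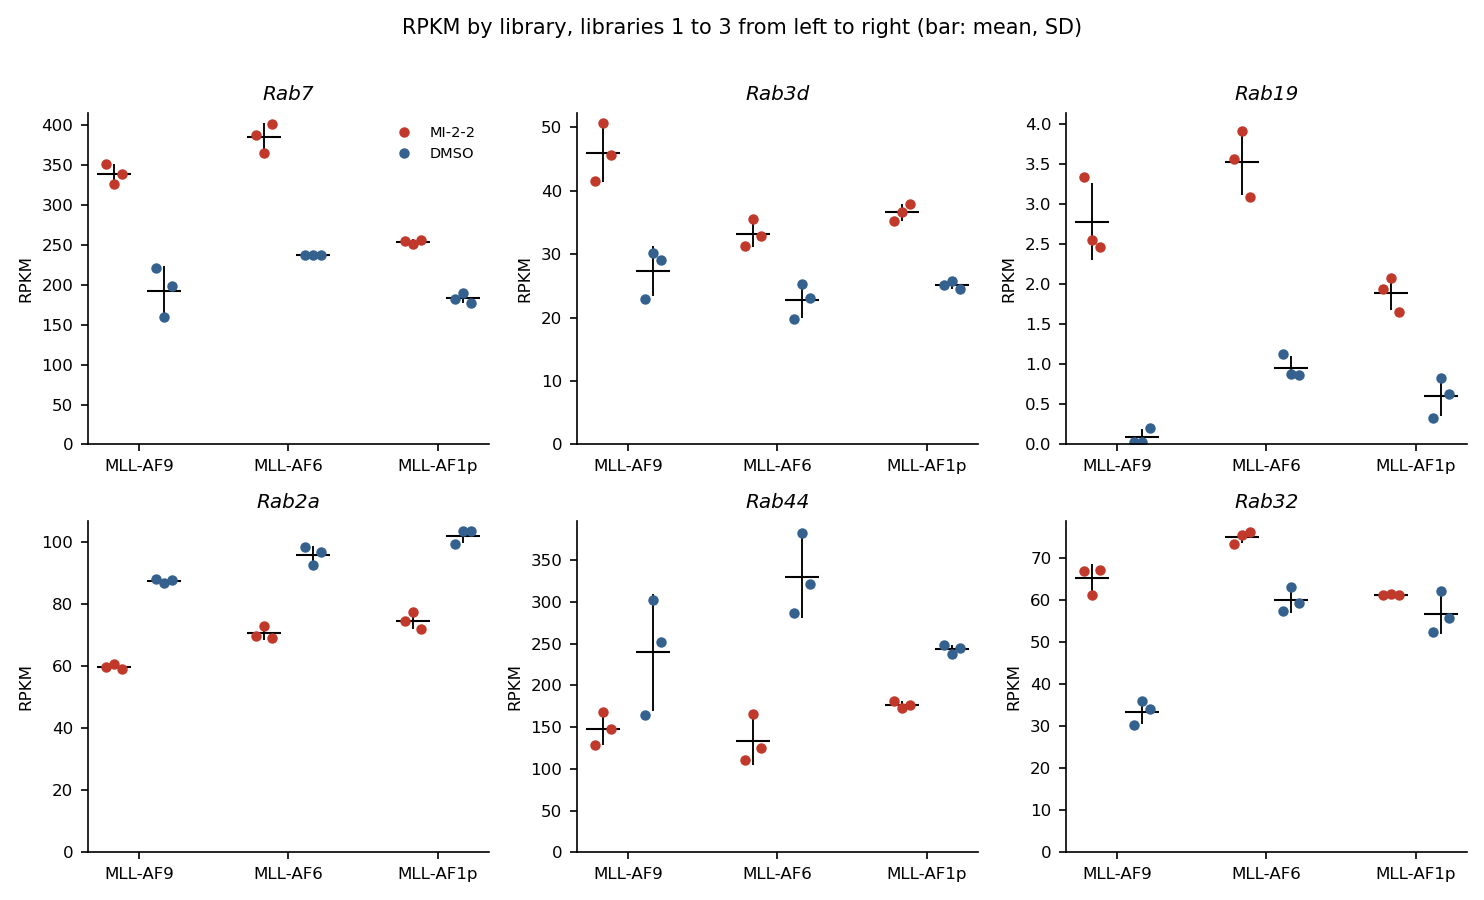
RPKM in each of the 18 libraries for Rab7, Rab3d, Rab19, Rab2a, Rab44 and Rab32, with MI-2-2 left of DMSO in each construct, points for libraries, horizontal bars for means and vertical lines for the SD. Rab7, Rab3d and Rab19 lie higher and Rab2a lower on MI-2-2 in each construct without overlap, while Rab44 overlaps in MLL-AF9 cells and Rab32 in MLL-AF1p cells.

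The early and recycling endosome genes formed the largest role, with 15 members tested. In MLL-AF9 cells 7 rose (Rab5b, Rab11a, Rab12, Rab14, Rab21, Rab22a and Rab35) and 3 fell (Rab4a, Rab17 and Rab25). In MLL-AF6 cells 2 rose (Rab11a and Rab14) and 5 fell (Rab11b, Rab17, Rab25, Rab31 and Rab35), a split that became 6 against 1 with median centring and 5 against 2 with quantile normalization. In MLL-AF1p cells 3 rose (Rab4b, Rab5c and Rab35) and Rab4a fell, with 3 against 2 under quantile normalization. The median log2 fold change of the 15 was 0.13, 0.12 and 0.12 in the 3 constructs in the order MLL-AF9, MLL-AF6 and MLL-AF1p.

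Early endosome fusion is run by the Rab5 paralogs, of which Rab5c was by far the most abundant. Rab5c had 213, 212 and 218 RPKM on MI-2-2, against 194, 191 and 207 RPKM on DMSO in MLL-AF9 cells (0.12 ± 0.07, adjusted p = 0.139). MLL-AF6 cells had 182, 176 and 186 RPKM on MI-2-2, against 177, 152 and 171 RPKM on DMSO (adjusted p = 0.137), with groups that overlapped. It rose in MLL-AF1p cells, at 163, 159 and 160.4 RPKM on MI-2-2, against 145, 121 and 135 RPKM on DMSO (0.27 ± 0.07, adjusted p = 0.00423). Higher values on MI-2-2 were thus seen in all 3 constructs and passed in MLL-AF1p cells, and in MLL-AF6 cells as well with median centring (adjusted p = 0.0211). Rab5b rose in MLL-AF9 cells to 68.8 ± 2.00 RPKM on MI-2-2, against 51.6 ± 5.25 RPKM on DMSO (0.42 ± 0.06, adjusted p = 4.39e-05). Rab5a passed in no construct, at 24.6 to 31.3 RPKM over the MI-2-2 libraries and 19.5 to 33.8 RPKM over the DMSO libraries.

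Rab14, which shuttles between endosomes and the Golgi and sits on phagosomes, rose in MLL-AF9 and MLL-AF6 cells. It had 93.0, 96.7 and 92.9 RPKM on MI-2-2, against 78.5, 66.4 and 75.0 RPKM on DMSO in MLL-AF9 cells (0.36 ± 0.07, adjusted p = 2.59e-04). MLL-AF6 cells had 98.9, 107 and 99.4 RPKM on MI-2-2, against 87.9, 88.4 and 87.4 RPKM on DMSO (0.21 ± 0.07, adjusted p = 0.0139), a call lost without MI-2-2 library 2 (adjusted p = 0.0606). In MLL-AF1p cells, at 84.5, 89.2 and 81.6 RPKM on MI-2-2, against 79.6, 91.4 and 81.8 RPKM on DMSO, the groups overlapped (adjusted p = 0.867). Rab21, which recycles integrins, rose in MLL-AF9 cells to 52.2 ± 2.11 RPKM on MI-2-2, against 39.4 ± 5.60 RPKM on DMSO (adjusted p = 0.00136). Rab22a, of early endosome tubules, rose there to 21.2 ± 1.39 RPKM, against 14.7 ± 3.79 RPKM (adjusted p = 0.00244). Rab12, which sends the transferrin receptor to lysosomes, rose there to 13.6 ± 0.74 RPKM, against 10.6 ± 0.95 RPKM (adjusted p = 0.0011). In the other constructs Rab21 had adjusted p of 0.297 (MLL-AF6) and 0.19 (MLL-AF1p), Rab22a 0.201 and 0.137, and Rab12 0.0659 and 0.688. Rab12 passed in MLL-AF6 cells with median centring, quantile normalization and without MLL-AF9 DMSO library 2 or MLL-AF6 MI-2-2 library 2 (adjusted p = 0.00773, 0.00724, 0.0345 and 0.0405). Rab22a passed in MLL-AF1p cells fitted alone and without MLL-AF9 DMSO library 1 (adjusted p = 0.00408 and 0.0293). Rab31, a relative of Rab22a in traffic from the Golgi to endosomes, fell in MLL-AF6 cells to 50.4 ± 1.97 RPKM on MI-2-2, against 59.2 ± 5.50 RPKM on DMSO (adjusted p = 0.0435). That call was lost without any 1 of 12 libraries (MLL-AF9 MI-2-2 libraries 1 and 3, the MI-2-2 libraries of MLL-AF6 and MLL-AF1p, MLL-AF6 DMSO library 1 and the third DMSO library of each construct, adjusted p = 0.0509 to 0.184).

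Recycling members parted by paralog. Rab11a and Rab11b both serve the slow recycling route. Rab11a rose in MLL-AF6 cells to 34.7 ± 1.77 RPKM on MI-2-2, against 29.1 ± 0.63 RPKM on DMSO (0.25 ± 0.06, adjusted p = 0.0035), and in MLL-AF9 cells to 39.9 ± 1.15 RPKM, against 35.7 ± 3.26 RPKM (0.16 ± 0.06, adjusted p = 0.04). The MLL-AF9 rise of Rab11a was lost without any 1 of 6 libraries: any MI-2-2 library or DMSO library 2 of MLL-AF9, MLL-AF1p MI-2-2 library 1, or MLL-AF1p DMSO library 3 (adjusted p = 0.0505 to 0.196), and with median centring (adjusted p = 0.27). Rab11b fell in MLL-AF6 cells to 25.3 ± 0.32 RPKM on MI-2-2, against 29.0 ± 1.64 RPKM on DMSO (-0.19 ± 0.05, adjusted p = 0.00703), but not with median centring (adjusted p = 0.0942) or quantile normalization (adjusted p = 0.193). Rab35, which returns receptors from endosomes to the plasma membrane, rose in MLL-AF9 cells to 47.4 ± 1.69 RPKM on MI-2-2, against 37.0 ± 1.96 RPKM on DMSO, and in MLL-AF1p cells to 44.1 ± 1.82 RPKM, against 37.5 ± 1.39 RPKM (adjusted p = 6.71e-05 and 0.00343). In MLL-AF6 cells it fell to 45.0 ± 1.24 RPKM on MI-2-2, against 51.2 ± 2.22 RPKM on DMSO (-0.18 ± 0.06, adjusted p = 0.0115), and that fall of Rab35 was lost without MLL-AF6 DMSO library 3 (adjusted p = 0.0552), with median centring (adjusted p = 0.137) and with quantile normalization (adjusted p = 0.121). Rab1b and Rab35 were the only 2 members called higher in 1 construct and lower in another, against 8.14% of all genes.

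Of the Rab4 paralogs, which serve fast recycling, Rab4a was low and Rab4b abundant. Rab4a had 2.20, 1.54 and 2.66 RPKM in MLL-AF9 cells on MI-2-2, against 6.21, 5.42 and 5.38 RPKM on DMSO, a fall of 1.25 on the log2 scale (SE 0.16, adjusted p = 6.71e-06). In MLL-AF1p cells it had 0.666, 0.355 and 0.639 RPKM on MI-2-2, against 1.03, 1.02 and 0.850 RPKM on DMSO (-0.49 ± 0.16, adjusted p = 0.02). MLL-AF6 cells had 1.26, 0.994 and 1.43 RPKM on MI-2-2, against 1.28, 0.971 and 0.983 RPKM on DMSO, with overlapping groups (adjusted p = 0.504). Every MI-2-2 library was thus under every DMSO library in MLL-AF9 and MLL-AF1p cells, and the MLL-AF1p call of Rab4a was lost without MI-2-2 library 2 or DMSO library 1 or 2 (adjusted p = 0.107, 0.0576 and 0.0585). Rab4b rose in MLL-AF1p cells to 47.6 ± 1.00 RPKM on MI-2-2, against 38.8 ± 2.17 RPKM on DMSO (0.29 ± 0.10, adjusted p = 0.0206), which was lost without MI-2-2 library 1 or 2 or DMSO library 2 (adjusted p = 0.06, 0.0535 and 0.0817). A transcript annotated later on the same strand covers 85.2% of the exon bases of Rab4b.

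Rab25 and Rab17 are known from polarized epithelial cells, and both were low here. Rab25, of the Rab11 subfamily, had 1.80, 1.42 and 1.77 RPKM in MLL-AF9 cells on MI-2-2, against 4.57, 4.36 and 5.59 RPKM on DMSO (-1.30 ± 0.19, adjusted p = 2.73e-05). In MLL-AF6 cells it had 0.184, 0.214 and 0.440 RPKM on MI-2-2, against 0.590, 0.365 and 0.941 RPKM on DMSO, counts of 5 to 12 and 11 to 28 reads. The groups overlapped there, and the call (-0.52 ± 0.19, adjusted p = 0.0271) was lost without MI-2-2 library 1 or 2 or DMSO library 3 (adjusted p = 0.101, 0.0796 and 0.155). In MLL-AF1p cells Rab25 had 0.533, 0.346 and 0.648 RPKM on MI-2-2, against 0.384, 0.191 and 0.461 RPKM on DMSO (adjusted p = 0.279). The level of Rab25 in MLL-AF9 cells was therefore above that of the other constructs under both treatments. Rab17 had 0.356, 0.387 and 0.295 RPKM on MI-2-2, against 0.536, 0.880 and 0.717 RPKM on DMSO in MLL-AF9 cells (-0.51 ± 0.13, adjusted p = 0.00349). MLL-AF6 cells had 0.679, 0.637 and 0.522 RPKM on MI-2-2, against 1.72, 1.91 and 1.84 RPKM on DMSO (-1.06 ± 0.13, adjusted p = 5.36e-06). MLL-AF1p cells had 0.872, 0.814 and 1.03 RPKM on MI-2-2, against 1.65, 1.04 and 1.13 RPKM on DMSO (-0.32 ± 0.13, adjusted p = 0.0535). No groups of Rab17 overlapped, and MLL-AF6 cells on DMSO stood highest.

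**Figure D3:**
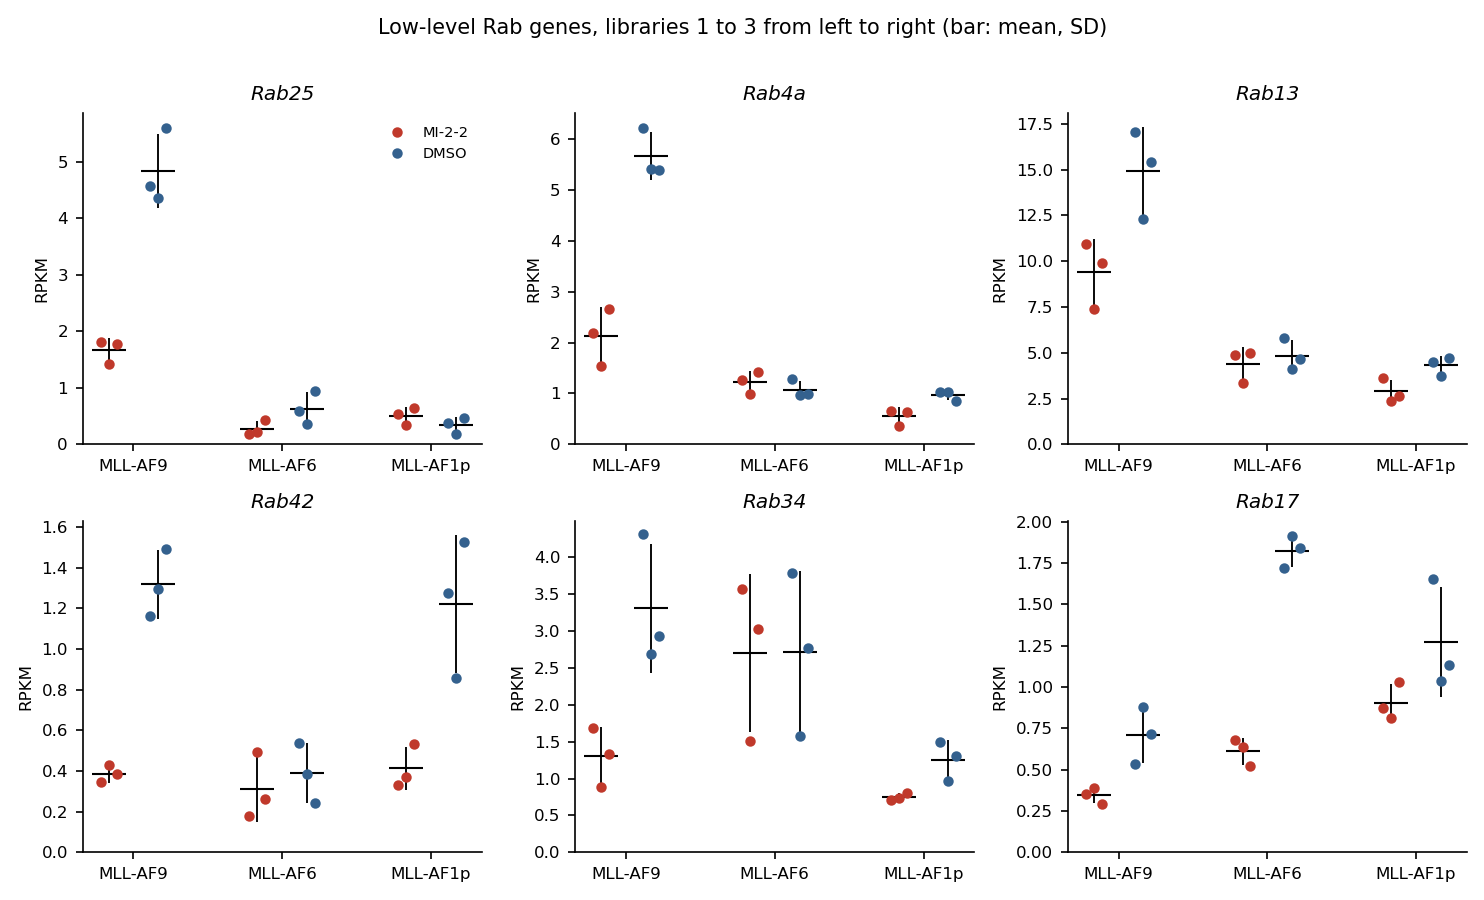
RPKM in each of the 18 libraries for the low members Rab25, Rab4a, Rab13, Rab42, Rab34 and Rab17, with MI-2-2 left of DMSO in each construct. Rab25, Rab4a and Rab13 are highest in MLL-AF9 cells on DMSO, and Rab17 in MLL-AF6 cells on DMSO.

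Late endosomes, lysosomes and phagosomes were represented by 8 tested members, and here rises outnumbered falls by small counts. Rab7 and Rab32 rose and Rab34 fell in MLL-AF9 cells. Rab7, Rab7l1, Rab20 and Rab32 rose and Rab36 fell in MLL-AF6 cells, and Rab7 alone passed in MLL-AF1p cells. Under quantile normalization the split was 2 against 2 in MLL-AF9 and 1 against 1 in MLL-AF1p cells. With the replicate number as a block it was 4 against 2 in MLL-AF9 and MLL-AF6 cells and 2 against 2 in MLL-AF1p cells. The median log2 fold change of the 8 was 0.09, 0.15 and 0.01 in the same order of constructs.

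Rab7 rose in each construct. In MLL-AF9 cells it had 351, 326 and 339 RPKM on MI-2-2, against 220.5, 159 and 198 RPKM on DMSO. MLL-AF6 cells had 387, 365 and 402 RPKM on MI-2-2, against 237, 238 and 237 RPKM on DMSO. In MLL-AF1p cells the values were 255, 251 and 257 RPKM on MI-2-2, against 183, 189 and 177 RPKM on DMSO. Every MI-2-2 library stood above every DMSO library, those of other constructs included. The log2 fold changes were 0.82, 0.69 and 0.47, each with an SE of 0.09, and the adjusted p was 7.61e-07, 5.71e-06 and 3.43e-04. No single library ended a call of Rab7, and with library 3 left out of every group, which leaves 2 a group, the MLL-AF1p call was lost (adjusted p = 0.0523). A gene on the opposite strand overlaps 7.8% of the exon bases of Rab7.

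Rab32, which builds lysosome-related organelles and acts in defence against intracellular bacteria, rose in MLL-AF9 and MLL-AF6 cells. In MLL-AF9 cells it had 67.1, 61.4 and 67.3 RPKM on MI-2-2, against 30.4, 36.1 and 34.1 RPKM on DMSO (0.95 ± 0.07, adjusted p = 1.81e-08). Cells with MLL-AF6 had 73.5, 75.5 and 76.3 RPKM on MI-2-2, against 57.6, 63.3 and 59.3 RPKM on DMSO (0.32 ± 0.07, adjusted p = 0.00115). In MLL-AF1p cells, at 61.2, 61.5 and 61.2 RPKM on MI-2-2, against 52.6, 62.1 and 55.7 RPKM on DMSO, the groups overlapped (0.11 ± 0.07, adjusted p = 0.207). The MI-2-2 levels of the 3 constructs lay between 61.2 and 76.3 RPKM, and the DMSO level of MLL-AF9 cells was the low one.

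Rab7l1, the gene now named Rab29, whose product works with the kinase Lrrk2 at the Golgi and lysosomes, rose in MLL-AF6 cells to 26.8 ± 1.18 RPKM on MI-2-2, against 21.5 ± 1.25 RPKM on DMSO (0.31 ± 0.07, adjusted p = 0.00104). Rab20, of maturing phagosomes, rose there to 21.7 ± 2.28 RPKM, against 14.6 ± 2.23 RPKM (0.56 ± 0.17, adjusted p = 0.0107), a call lost without DMSO library 2 (adjusted p = 0.0562), and 25.6% of its exon bases overlap a gene on the opposite strand. In the other constructs Rab20 averaged 19.6 and 14.8 RPKM on MI-2-2 and 15.1 and 11.3 RPKM on DMSO (adjusted p = 0.08 with MLL-AF9, 0.0831 with MLL-AF1p), so the difference had one sign in all 3. Rab36, a low relative of Rab34, fell in MLL-AF6 cells to 0.188 ± 0.049 RPKM on MI-2-2, against 0.551 ± 0.271 RPKM on DMSO (adjusted p = 0.0125), which was lost without DMSO library 2 (adjusted p = 0.0746).

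Rab34, which positions lysosomes and also serves the primary cilium, had 1.69, 0.880 and 1.33 RPKM in MLL-AF9 cells on MI-2-2, against 4.30, 2.69 and 2.92 RPKM on DMSO (-1.08 ± 0.28, adjusted p = 0.00352). Cells with MLL-AF6 had 3.57, 1.50 and 3.03 RPKM on MI-2-2, against 3.77, 1.58 and 2.77 RPKM on DMSO (adjusted p = 0.992). In MLL-AF1p cells it had 0.703, 0.735 and 0.803 RPKM on MI-2-2, against 1.50, 0.968 and 1.30 RPKM on DMSO (-0.48 ± 0.28, adjusted p = 0.166). The SE of 0.28 was the widest of all members. Library 2 was the lowest for Rab34 in both MLL-AF9 groups, both MLL-AF6 groups and the MLL-AF1p DMSO group. Rab24, an atypical member linked to autophagy, passed in no construct, at 68.9, 66.7 and 67.4 RPKM on MI-2-2, against 60.6, 70.5 and 69.8 RPKM on DMSO in MLL-AF9 cells. Its MLL-AF6 values were 52.4, 61.9 and 62.6 RPKM on MI-2-2, against 60.0, 60.8 and 60.2 RPKM on DMSO, and its MLL-AF1p values 54.5, 53.1 and 51.3 RPKM, against 54.9, 47.5 and 54.7 RPKM. All 3 pairs of groups overlapped (adjusted p = 0.859, 0.693 and 0.86), and 66.4% of the exon bases of Rab24 overlap a gene on the opposite strand. Rab9, which returns receptors from late endosomes to the Golgi, averaged 22.6 to 25.1 RPKM on MI-2-2 and 25.8 to 32.0 RPKM on DMSO, with adjusted p of 0.192, 0.0648 and 0.878 for MLL-AF9, MLL-AF6 and MLL-AF1p. Rab9 passed in MLL-AF6 cells, as lower, without MLL-AF9 DMSO library 1 or 2, MLL-AF6 MI-2-2 library 1 or MLL-AF6 DMSO library 2 (adjusted p = 0.0288, 0.0332, 0.0374 and 0.0129), and in MLL-AF9 cells without MLL-AF9 DMSO library 2 (adjusted p = 0.0294).

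Of the members of secretion and the plasma membrane, 9 were tested. In MLL-AF9 cells 5 rose (Rab3d, Rab8a, Rab8b, Rab27a and Rab37) and 3 fell (Rab3a, Rab13 and Rab44). In MLL-AF6 cells Rab3d, Rab8a and Rab8b rose and Rab3a and Rab44 fell. In MLL-AF1p cells Rab3d and Rab8a rose and Rab3a, Rab10 and Rab13 fell. The split was 3 against 3 in MLL-AF9 cells with median centring, and in MLL-AF1p cells 2 against 1 with median centring and 1 against 1 with quantile normalization. The median log2 fold change of the 9 was 0.17, 0.11 and 0.05.

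Within the Rab3 subfamily of regulated exocytosis, Rab3d of secretory granules rose while Rab3a of synaptic-type vesicles fell. Rab3d had 41.6, 50.7 and 45.6 RPKM on MI-2-2, against 22.9, 30.2 and 29.1 RPKM on DMSO in MLL-AF9 cells. MLL-AF6 cells had 31.3, 35.5 and 32.8 RPKM on MI-2-2, against 19.7, 25.3 and 23.1 RPKM on DMSO, and MLL-AF1p cells 35.3, 36.6 and 38.0 RPKM, against 25.2, 25.8 and 24.4 RPKM. No groups overlapped, and the log2 fold changes were 0.74, 0.54 and 0.54, each with an SE of 0.10 (adjusted p = 2.16e-05, 4.25e-04 and 6.94e-04). Rab3a had 2.88, 2.35 and 2.84 RPKM on MI-2-2, against 3.73, 3.43 and 3.55 RPKM on DMSO in MLL-AF9 cells (-0.35 ± 0.11, adjusted p = 0.0108). It had 1.76, 1.91 and 2.12 RPKM on MI-2-2, against 3.06, 2.55 and 2.72 RPKM on DMSO in MLL-AF6 cells (-0.43 ± 0.11, adjusted p = 0.00315). In MLL-AF1p cells, at 1.44, 1.44 and 1.89 RPKM on MI-2-2, against 2.35, 1.82 and 2.02 RPKM on DMSO, the groups of Rab3a overlapped (-0.30 ± 0.11, adjusted p = 0.0349). The MLL-AF1p call of Rab3a was lost without MI-2-2 library 1 or 2 or DMSO library 1 or 3 (adjusted p = 0.128, 0.126, 0.148 and 0.0674), and its MLL-AF9 call without MI-2-2 library 2 (adjusted p = 0.059).

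Rab8a and Rab8b bring vesicles from the Golgi and endosomes to the plasma membrane. Rab8a rose by little but evenly, at 83.0, 86.0 and 84.2 RPKM on MI-2-2, against 76.8, 76.4 and 73.8 RPKM on DMSO in MLL-AF9 cells (0.16 ± 0.04, adjusted p = 0.00737). MLL-AF6 cells had 86.5, 87.7 and 84.3 RPKM on MI-2-2, against 79.2, 77.0 and 83.2 RPKM on DMSO (0.11 ± 0.04, adjusted p = 0.0453), and MLL-AF1p cells 83.7, 84.9 and 84.1 RPKM, against 77.5, 73.8 and 76.9 RPKM (0.15 ± 0.04, adjusted p = 0.0141). No groups overlapped, yet the MLL-AF6 call of Rab8a was lost without any 1 of 13 libraries (every MI-2-2 library of the 3 constructs, MLL-AF6 DMSO libraries 1 and 2 and MLL-AF1p DMSO libraries 1 and 3, adjusted p = 0.0518 to 0.155). Its MLL-AF1p call was lost without DMSO library 2 (adjusted p = 0.0504), and its MLL-AF9 call with median centring (adjusted p = 0.186). Rab8b rose more, in MLL-AF9 cells to 45.9 ± 0.54 RPKM on MI-2-2, against 29.5 ± 5.63 RPKM on DMSO, and in MLL-AF6 cells to 46.2 ± 0.71 RPKM, against 34.2 ± 1.13 RPKM (0.65 ± 0.10 and 0.43 ± 0.10, adjusted p = 4.44e-05 and 0.0018). In MLL-AF1p cells Rab8b averaged 43.9 RPKM on MI-2-2 and 42.5 RPKM on DMSO (adjusted p = 0.717).

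Rab44 fell in MLL-AF9 and MLL-AF6 cells. It had 129, 168 and 148 RPKM on MI-2-2, against 164, 302 and 252 RPKM on DMSO in MLL-AF9 cells (-0.65 ± 0.18, adjusted p = 0.00695), with groups that overlapped. MLL-AF6 cells had 110.3, 166 and 125 RPKM on MI-2-2, against 287, 383 and 321 RPKM on DMSO (-1.31 ± 0.18, adjusted p = 2.32e-05), without overlap. MLL-AF1p cells had 181, 173 and 177 RPKM on MI-2-2, against 248, 237 and 245 RPKM on DMSO. In MLL-AF1p cells the groups of Rab44 were tight and apart and the log2 fold change of -0.46 ± 0.18 missed the threshold (adjusted p = 0.0531) in the fit that shares 1 spread over the constructs. With each construct fitted alone, Rab44 passed in MLL-AF1p cells (adjusted p = 6.58e-05) and no longer in MLL-AF9 cells (adjusted p = 0.052). In MLL-AF1p cells it also passed with quantile normalization and voom (adjusted p = 0.0417 and 0.0448) and without MLL-AF9 DMSO library 1 or 2, MLL-AF6 MI-2-2 library 1 or 2 or MLL-AF6 DMSO library 2 (adjusted p = 0.012, 0.0284, 0.0487, 0.0387 and 0.0488). Library 2 was the highest of each MLL-AF9 and MLL-AF6 group for Rab44. Of 6 mast cell and basophil markers, Fcer1a, Cma1 and Tpsb2 were at 0 in all 18 libraries and Mcpt8 alone reached the level to be tested. The summed level of the 6 was 5.76 to 7.17 RPKM on MI-2-2 against 13.6 to 17.8 RPKM on DMSO in MLL-AF9 cells, 5.08 to 6.35 against 12.5 to 27.0 RPKM in MLL-AF6 cells and 14.2 to 15.4 against 14.2 to 16.7 RPKM in MLL-AF1p cells. Mcpt8, a protease of basophils, fell in MLL-AF9 and MLL-AF6 cells (-1.14 and -1.57, adjusted p = 1.14e-04 and 5.50e-06) and had a log2 fold change of -0.09 in MLL-AF1p cells (adjusted p = 0.721). The part of these markers in the result on Rab44 was not tested.

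Rab27a, which docks granules at the plasma membrane of leukocytes, rose in MLL-AF9 cells, at 62.8, 80.6 and 71.8 RPKM on MI-2-2, against 55.8, 60.2 and 60.8 RPKM on DMSO (0.28 ± 0.10, adjusted p = 0.0294). MLL-AF6 cells had 49.4, 65.4 and 52.7 RPKM on MI-2-2, against 59.4, 70.9 and 62.6 RPKM on DMSO (-0.21 ± 0.10, adjusted p = 0.0896), with overlap. MLL-AF1p cells had 85.0, 89.8 and 89.4 RPKM on MI-2-2, against 82.1, 79.6 and 84.1 RPKM on DMSO (adjusted p = 0.421). The MLL-AF9 rise of Rab27a was lost without MI-2-2 library 2 or 3 or DMSO library 1 (adjusted p = 0.149, 0.0675 and 0.0849). Rab37, of secretory vesicles in mast cells and macrophages, had 2.20, 3.81 and 2.78 RPKM on MI-2-2, against 1.09, 2.07 and 2.00 RPKM on DMSO in MLL-AF9 cells (0.63 ± 0.23, adjusted p = 0.0269). That rise of Rab37 was lost without MI-2-2 library 2 or 3 or DMSO library 1 as well (adjusted p = 0.13, 0.0521 and 0.134). In MLL-AF6 cells Rab37 had 0.946, 2.11 and 1.12 RPKM on MI-2-2, against 0.724, 1.13 and 1.03 RPKM on DMSO, and in MLL-AF1p cells 2.00, 2.54 and 2.42 RPKM, against 1.91, 2.30 and 1.91 RPKM (adjusted p = 0.225 and 0.617).

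Rab13, known from tight junctions, fell in MLL-AF9 cells, at 11.0, 7.40 and 9.89 RPKM on MI-2-2, against 17.1, 12.3 and 15.4 RPKM on DMSO (-0.64 ± 0.18, adjusted p = 0.00761). MLL-AF6 cells had 4.89, 3.33 and 4.99 RPKM on MI-2-2, against 5.79, 4.09 and 4.68 RPKM on DMSO (adjusted p = 0.559). MLL-AF1p cells had 3.61, 2.39 and 2.67 RPKM on MI-2-2, against 4.49, 3.72 and 4.72 RPKM on DMSO (-0.52 ± 0.18, adjusted p = 0.0323), a call lost without MI-2-2 library 2 or 3 or DMSO library 1 or 3 (adjusted p = 0.127, 0.0935, 0.0811 and 0.103). Library 2 was the lowest of all 6 groups for Rab13. Rab10, which delivers membrane proteins such as Toll-like receptor 4 to the surface, fell in MLL-AF1p cells to 30.5 ± 1.03 RPKM on MI-2-2, against 37.4 ± 6.33 RPKM on DMSO (-0.28 ± 0.10, adjusted p = 0.035). That fall of Rab10 was lost without any MI-2-2 library or DMSO library 2 of MLL-AF1p (adjusted p = 0.0565 to 0.199), and that DMSO library, at 44.6 RPKM, was the highest of the 18.

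The remaining 4 tested members serve cilia or have little-known roles. Rab42, little studied, had 0.344, 0.430 and 0.384 RPKM in MLL-AF9 cells on MI-2-2, against 1.16, 1.30 and 1.49 RPKM on DMSO (-1.03 ± 0.17, adjusted p = 8.89e-05), from 6 to 9 and 19 to 32 reads. In MLL-AF1p cells it had 0.334, 0.369 and 0.535 RPKM on MI-2-2, against 1.28, 0.858 and 1.53 RPKM on DMSO (-0.90 ± 0.17, adjusted p = 4.77e-04). In MLL-AF6 cells it had 0.177, 0.494 and 0.265 RPKM on MI-2-2, against 0.538, 0.384 and 0.243 RPKM on DMSO, and the groups overlapped (adjusted p = 0.514). Rab42 thus fell in the 2 constructs with the higher DMSO level. Rab23, an antagonist of hedgehog signalling at the cilium, had 1.24, 1.28 and 1.13 RPKM in MLL-AF1p cells on MI-2-2, against 1.38, 2.21 and 1.69 RPKM on DMSO (-0.38 ± 0.12, adjusted p = 0.0184), a fall lost without MI-2-2 library 3 or DMSO library 2 (adjusted p = 0.0682 and 0.105). In the other constructs Rab23 had 0.742, 0.873 and 0.862 RPKM on MI-2-2, against 0.669, 1.01 and 0.809 RPKM on DMSO in MLL-AF9 cells, and 1.43, 1.67 and 1.41 RPKM, against 1.38, 1.48 and 1.51 RPKM in MLL-AF6 cells. Rab40c, which joins a ubiquitin ligase through its SOCS box, rose in MLL-AF6 cells to 11.0 ± 0.49 RPKM on MI-2-2, against 9.62 ± 0.24 RPKM on DMSO (adjusted p = 0.0152), lost without MI-2-2 library 2 (adjusted p = 0.0669). Rab28, a ciliary member of photoreceptors, passed in no construct, though it did in MLL-AF1p cells without DMSO library 1 (adjusted p = 0.0428).

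Further calls given above were lost under another setting. With no filter on low values they included Rab3a, Rab10, Rab13 and Rab18 in MLL-AF1p cells (adjusted p = 0.0636, 0.0743, 0.0827 and 0.0574), Rab25 and Rab31 in MLL-AF6 cells (0.0668 and 0.0875) and Rab27a and Rab37 in MLL-AF9 cells (0.0651 and 0.0728). With median centring they included Rab3a, Rab10 and Rab18 in MLL-AF1p cells (adjusted p = 0.0675, 0.0634 and 0.0612), Rab25 and Rab31 in MLL-AF6 cells (0.0626 and 0.19) and Rab27a in MLL-AF9 cells (0.099). Quantile normalization also ended the calls of Rab3a, Rab8a, Rab10 and Rab13 in MLL-AF1p cells (adjusted p = 0.142, 0.0656, 0.0545 and 0.078) and of Rab31 in MLL-AF6 cells (0.24). With each construct fitted alone, Rab3a and Rab10 were lost in MLL-AF1p cells (adjusted p = 0.0552 and 0.0632), Rab1b, Rab8a, Rab25 and Rab40c in MLL-AF6 cells (0.0861, 0.129, 0.0848 and 0.05) and Rab8a, Rab11a, Rab27a and Rab37 in MLL-AF9 cells (0.0695, 0.174, 0.066 and 0.0757). The MLL-AF6 calls of Rab8a and Rab31 were also lost with a constant prior variance (adjusted p = 0.0705 and 0.0508), and that of Rab8a with voom (0.0591).

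Other responses passed under another setting and not in the fit reported above. In MLL-AF6 cells these included Rab4b and Rab5b with median centring (adjusted p = 0.0456 and 0.00411) and quantile normalization (0.0306 and 0.00774), Rab27a without MI-2-2 library 2 (0.00866), Rab2b without MLL-AF6 DMSO library 3 or MLL-AF1p DMSO library 2 (0.0419 and 0.0409) and Rab6b and Rab43 without DMSO library 2 (0.0393 and 0.0471). In MLL-AF1p cells Rab20, Rab31, Rab34, Rab36 and Rab11a passed when the construct was fitted alone (adjusted p = 5.26e-04, 0.029, 0.0101, 0.011 and 0.0209), Rab11b and Rab31 with median centring (0.018 and 0.0369), Rab17 and Rab36 with quantile normalization (0.0496 and 0.00716) and Rab17, Rab20 and Rab36 with voom (0.0268, 0.0479 and 0.0131). In MLL-AF9 cells Rab36 passed with quantile normalization (adjusted p = 0.0382). Leaving out MLL-AF9 DMSO library 1 made Rab6a, Rab7l1, Rab20 and Rab36 pass there (adjusted p = 0.0198, 0.0293, 0.0185 and 0.0149), and leaving out MLL-AF9 MI-2-2 library 2 made Rab20 pass in MLL-AF9 and MLL-AF1p cells (0.00588 and 0.0364). Rab17, Rab31 and Rab36 passed in MLL-AF1p cells without MLL-AF9 DMSO library 1 (adjusted p = 0.0353, 0.0492 and 0.029). Without MLL-AF9 DMSO library 2, Rab11a, Rab11b, Rab17 and Rab31 passed in MLL-AF1p cells (adjusted p = 0.0253, 0.0495, 0.0384 and 0.0313) and Rab5b in MLL-AF6 cells (0.0111). Further cases were Rab7l1 in MLL-AF9 cells without MLL-AF9 MI-2-2 library 3 or MLL-AF6 DMSO library 2 (adjusted p = 0.0339 and 0.0495), and in MLL-AF1p cells Rab11b with no filter (0.0483), Rab17 with a constant prior variance or without DMSO library 2 (0.0414 and 0.0268) and Rab36 with a pseudocount of 0.1 or without MLL-AF6 DMSO library 2 (0.0229 and 0.033).

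Whether the response depended on the construct was tested by an F test of the 3 responses. It passed for 22 of the 46 Rab genes, against 52.8% of all genes. By pairs, 15 members differed between MLL-AF6 and MLL-AF9, against 33.1% of all genes, 13 between MLL-AF1p and MLL-AF9, against 35.1%, and 12 between MLL-AF1p and MLL-AF6, against 31.1%. These pairs share libraries and are given side by side. The response in MLL-AF6 cells lay below that in MLL-AF9 cells for 11 of the 46 members, or 23.9%, against 24% of all genes. It lay above for Rab25, Rab34, Rab42 and Rab4a, or 8.7% of members, against 9.02%. The response in MLL-AF1p cells lay below that in MLL-AF9 cells for 11 of the 46, or 23.9%, against 21.4% of all genes. It lay above for Rab25 and Rab4a, or 4.35% of members, against 13.6%. Against MLL-AF6, the MLL-AF1p response was higher for 7 members (15.2%, against 19.5% of all genes) and lower for 5 (10.9%, against 11.6%). Without MLL-AF6 MI-2-2 library 1 the 12 became 7.

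The smallest F test p belonged to Rab32 (adjusted p = 2.59e-05), whose MLL-AF9 rise exceeded those of MLL-AF6 and MLL-AF1p, with differences of response of -0.63 for MLL-AF6 against MLL-AF9 and -0.84 for MLL-AF1p against MLL-AF9 (adjusted p = 2.44e-04 and 2.07e-05). For Rab35 (F test adjusted p = 1.77e-04) the MLL-AF6 response stood apart, at -0.54 against MLL-AF9, while MLL-AF1p stood 0.41 above MLL-AF6 (adjusted p = 1.42e-04 and 0.0012). Rab1b (adjusted p = 0.00589) and Rab11b (adjusted p = 0.00446) likewise had a higher response in MLL-AF1p than in MLL-AF6 cells, by 0.40 and 0.32 (adjusted p = 0.00364 and 0.00604). Rab11a went the other way from its paralog, with a difference of -0.38 for MLL-AF1p against MLL-AF6 (adjusted p = 0.00455). Rab8b responded less in MLL-AF1p than in MLL-AF9 cells, by a difference of -0.60 (adjusted p = 0.004), and Rab21 less in MLL-AF6 than in MLL-AF9 cells, by -0.53 (adjusted p = 0.00641). Rab19 rose everywhere, yet less in MLL-AF6 and MLL-AF1p than in MLL-AF9 cells, by -1.01 and -1.33 (adjusted p = 0.00452 and 5.84e-04). Rab4a, which fell in MLL-AF9 cells, had a response in MLL-AF6 cells 1.38 above that in MLL-AF9 cells (adjusted p = 3.05e-04), and Rab25 one in MLL-AF1p cells 1.56 above it (adjusted p = 4.52e-04). No single library ended any of the pairwise differences given here.

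Part of these differences rested on scaling or on 1 library. With median centring the F test no longer passed for Rab21 (adjusted p = 0.0632), Rab5b (0.129), Rab6a (0.0822), Rab27a (0.118) or Rab31 (0.0512), and with quantile normalization not for Rab11b (0.0611) or Rab31 (0.0862). Rab14 was lost without MLL-AF1p MI-2-2 library 3 (adjusted p = 0.0527). Rab44 was lost without MLL-AF6 MI-2-2 library 1 or 3, MLL-AF6 DMSO library 2 or 3 or MLL-AF1p MI-2-2 library 1 (adjusted p = 0.0512 to 0.0851). Rab27a was lost without MLL-AF9 MI-2-2 library 2, MLL-AF6 MI-2-2 library 1 or 3 or MLL-AF6 DMSO library 2 (adjusted p = 0.055 to 0.0779), and Rab31 without MLL-AF6 MI-2-2 library 2 or MLL-AF6 DMSO library 1 (adjusted p = 0.0576 and 0.0645). Rab10 was lost without MLL-AF1p MI-2-2 library 1 or 3 or MLL-AF1p DMSO library 2 (adjusted p = 0.0508, 0.0671 and 0.0618). Rab7l1 was lost without MLL-AF6 MI-2-2 library 1, MLL-AF6 DMSO library 2 or 3, MLL-AF1p MI-2-2 library 2 or 3 or MLL-AF1p DMSO library 2 or 3 (adjusted p = 0.0596 to 0.0887). The F test of Rab32, Rab35, Rab4a, Rab19, Rab25, Rab11a, Rab1b, Rab43, Rab8b, Rab17 and Rab2b passed without each single library and under each scaling.

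**Figure D4:**
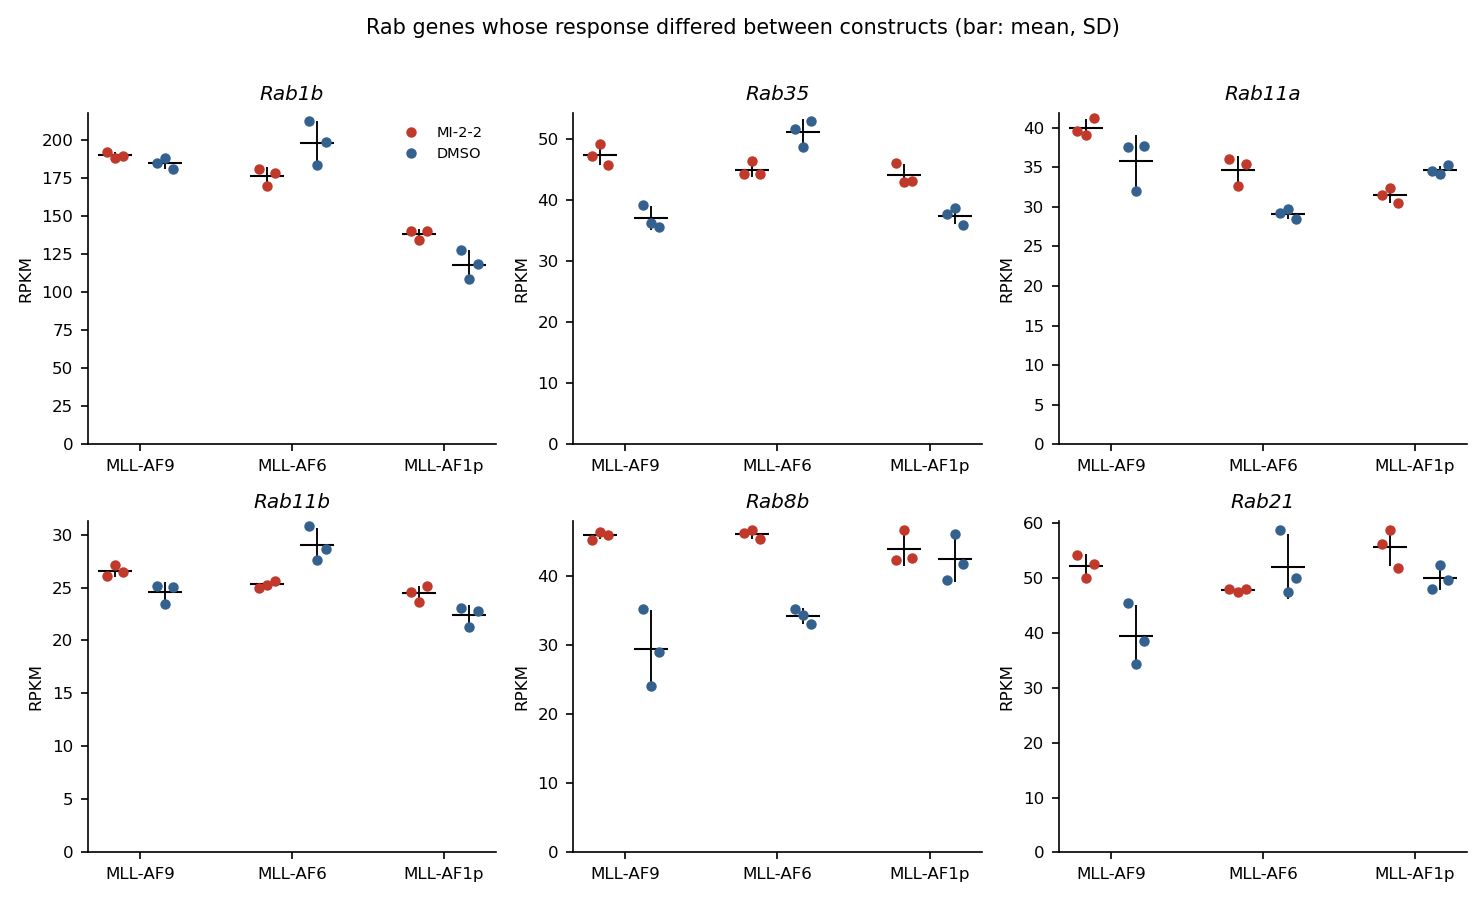
RPKM in each of the 18 libraries for Rab1b, Rab35, Rab11a, Rab11b, Rab8b and Rab21, with MI-2-2 left of DMSO in each construct. Rab1b and Rab35 lie lower on MI-2-2 in MLL-AF6 cells and higher in MLL-AF1p cells, and Rab8b differs between treatments in MLL-AF9 and MLL-AF6 cells while its groups overlap in MLL-AF1p cells.

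The constructs also differed on DMSO alone, before any MI-2-2. Between MLL-AF6 and MLL-AF9 cells 28 of 46 members differed, 16 higher and 12 lower in MLL-AF6, against 53.6% of all genes (29.1% and 24.5%). Between MLL-AF1p and MLL-AF9 cells 28 differed, 13 higher and 15 lower in MLL-AF1p, against 65.1% (36.5% and 28.6%). Between MLL-AF1p and MLL-AF6 cells 23 differed, 9 higher and 14 lower in MLL-AF1p, against 52.5% (28.8% and 23.7%), and 15 with the 9 DMSO libraries fitted alone. The 3 comparisons share DMSO libraries with each other and with the responses, and depth differs with MLL-AF1p.

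On DMSO Rab3a, Rab4a, Rab4b, Rab5c, Rab13, Rab25, Rab36 and Rab40c were lower in both other constructs than in MLL-AF9 cells. Of all genes, 24.5% were lower in MLL-AF6 and 28.6% in MLL-AF1p cells. Both comparisons use the MLL-AF9 DMSO libraries, and the share of all genes lower in both is not given here. The 3 of these members with the largest differences were Rab25, Rab4a and Rab13. Rab25 averaged 0.632 RPKM in MLL-AF6 and 0.345 RPKM in MLL-AF1p cells, against 4.84 RPKM in MLL-AF9 cells, a log2 difference of -2.26 and -2.67 (adjusted p = 8.34e-08 and 1.09e-08). Rab4a averaged 1.08 and 0.965 RPKM, against 5.67 RPKM in MLL-AF9 cells (-1.97 and -2.07, adjusted p = 5.49e-08 and 2.42e-08). Rab13 averaged 4.85 and 4.31 RPKM, against 14.9 RPKM in MLL-AF9 cells (-1.53 and -1.67, adjusted p = 5.03e-06 and 1.32e-06). These 3 also fell on MI-2-2 in MLL-AF9 cells, and on MI-2-2 they remained at 1.67 ± 0.21, 2.13 ± 0.57 and 9.41 ± 1.82 RPKM there. In the other direction, Rab19 averaged 0.956 RPKM in MLL-AF6 and 0.600 RPKM in MLL-AF1p cells, against 0.0920 RPKM in MLL-AF9 cells (1.31 and 0.88, adjusted p = 8.48e-06 and 2.57e-04). Rab32 was higher in MLL-AF6 than in MLL-AF9 cells by 0.83 and Rab17 by 0.95 (adjusted p = 9.73e-08 and 1.73e-05). Rab28 had 32.9, 40.5 and 36.3 RPKM in MLL-AF1p cells on DMSO, against 20.0, 18.8 and 19.2 RPKM in MLL-AF9 cells and 23.0, 24.5 and 26.7 RPKM in MLL-AF6 cells (0.90 and 0.55, adjusted p = 1.45e-07 and 5.39e-05). On MI-2-2 it had 32.4, 34.2 and 31.7 RPKM in MLL-AF1p, 20.5, 23.3 and 20.8 RPKM in MLL-AF9 and 22.9, 24.4 and 21.3 RPKM in MLL-AF6 cells. MLL-AF1p cells thus stood highest on both treatments, while the MLL-AF9 and MLL-AF6 libraries overlapped on MI-2-2. Rab23 was higher in MLL-AF1p than in MLL-AF9 cells by 0.76 (adjusted p = 5.80e-05).

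Between MLL-AF1p and MLL-AF6 cells, Rab1b was lower in MLL-AF1p with a log2 difference of -0.74 (adjusted p = 3.94e-07), at 118 ± 9.62 RPKM in MLL-AF1p and 198 ± 14.4 RPKM in MLL-AF6 cells. Rab43 had 7.29, 7.75 and 6.84 RPKM in MLL-AF1p cells on DMSO, against 13.5, 10.2 and 11.6 RPKM in MLL-AF6 cells (-0.65, adjusted p = 3.91e-05) and 9.11, 7.40 and 8.28 RPKM in MLL-AF9 cells. On MI-2-2 Rab43 had 8.10, 7.78 and 8.22 RPKM in MLL-AF1p, 11.0, 10.1 and 10.9 RPKM in MLL-AF6 and 11.2, 11.1 and 11.9 RPKM in MLL-AF9 cells. Rab34 was lower in MLL-AF1p than in MLL-AF6 cells by a difference of -0.82 (adjusted p = 0.0211), which was lost without MLL-AF6 DMSO library 1 or 3 or MLL-AF1p DMSO library 2 (adjusted p = 0.113, 0.0603 and 0.0806). Rab42 and Rab37 were higher in MLL-AF1p than in MLL-AF6 cells, by 0.95 and 0.80 (adjusted p = 2.94e-04 and 0.00806), and no single library ended either call.

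RPKM is per gene length, so the balance of close paralogs could be read as shares of their summed RPKM. Rab3d made up 94.3% ± 1.11 of the summed Rab3 RPKM on MI-2-2, against 87.8% ± 2.38 on DMSO in MLL-AF9 cells, 94.3% ± 0.48 against 88.9% ± 2.19 in MLL-AF6 cells, and 95.6% ± 0.51 against 92.3% ± 0.99 in MLL-AF1p cells. These groups did not overlap in any construct. Rab1b made up 60.5% ± 0.50 of Rab1 and Rab1b on MI-2-2, against 69.6% ± 0.85 on DMSO in MLL-AF6 cells, and 56.3% ± 1.54 against 55.4% ± 1.72 in MLL-AF1p cells, where the shares differed by less than their SD although Rab1b itself rose. In MLL-AF9 cells it was 62.5% ± 0.16 on MI-2-2, against 66.4% ± 4.40 on DMSO. Rab4a made up 3.33% ± 0.99 of the Rab4 pair on MI-2-2, against 9.15% ± 2.08 on DMSO in MLL-AF9 cells, 2.56% ± 0.57 against 2.50% ± 0.42 in MLL-AF6 cells and 1.15% ± 0.36 against 2.43% ± 0.33 in MLL-AF1p cells. Rab11a made up 57.8% ± 1.32 of the Rab11a and Rab11b sum on MI-2-2, against 50.1% ± 1.61 on DMSO in MLL-AF6 cells, but 56.3% ± 1.48 against 60.7% ± 0.84 in MLL-AF1p cells and 60.0% ± 0.98 against 59.2% ± 1.31 in MLL-AF9 cells. Rab6b made up 6.57% ± 0.48 of the Rab6 pair on MI-2-2, against 11.4% ± 0.53 on DMSO in MLL-AF9 cells, 7.48% ± 1.14 against 7.13% ± 1.31 in MLL-AF6 cells and 4.36% ± 0.21 against 5.96% ± 0.34 in MLL-AF1p cells. Rab8b made up 35.3% ± 0.18 of the Rab8 pair on MI-2-2, against 27.9% ± 3.78 on DMSO in MLL-AF9 cells, 34.9% ± 0.12 against 30.0% ± 1.40 in MLL-AF6 cells and 34.3% ± 1.09 against 35.8% ± 2.41 in MLL-AF1p cells. Reads that fall in stretches common to 2 paralogs may have been counted to either or to neither, so these shares are uncertain to that extent.

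**Figure D5:**
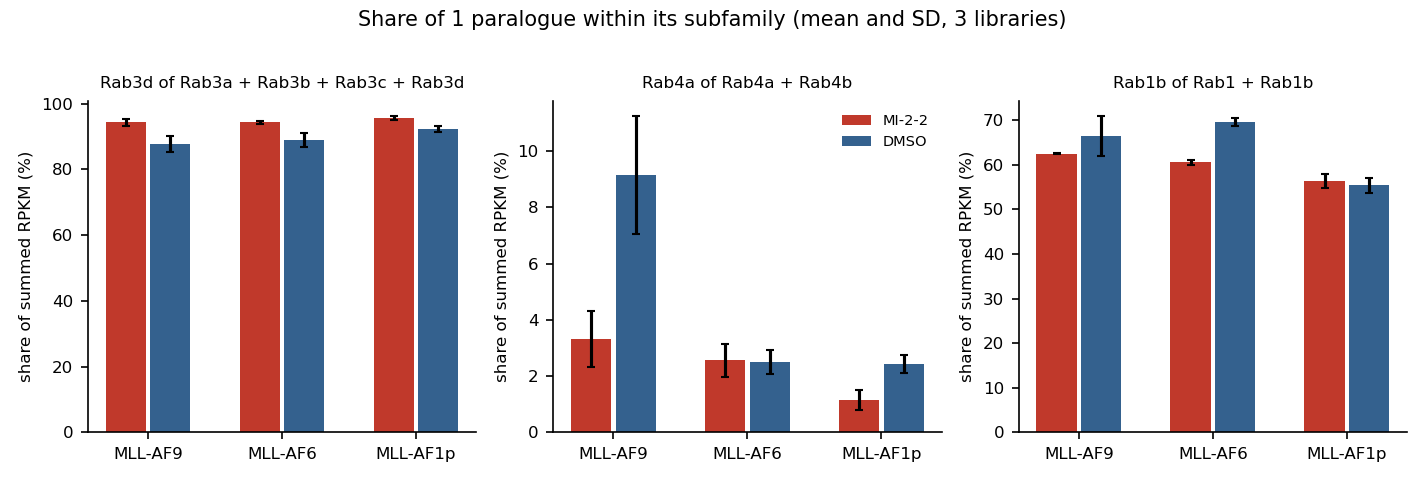
Share of the summed RPKM of a subfamily, in percent, held by Rab3d among the 4 Rab3 genes, by Rab4a among Rab4a and Rab4b, and by Rab1b among Rab1 and Rab1b, as means (bars) and SD (lines) over 3 libraries with MI-2-2 left of DMSO. The Rab3d share is higher on MI-2-2 in each construct, and the Rab4a share is lower in MLL-AF9 and MLL-AF1p cells. The Rab1b share is lower in MLL-AF6 cells and, with a wide spread on DMSO, in MLL-AF9 cells.

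The genes that run the Rab cycle were read from lists, whose counts stand beside 28.5% of all genes that rose and 27.9% that fell in MLL-AF9 cells, 18% and 38.9% in MLL-AF6 cells and 19.1% and 26.3% in MLL-AF1p cells. Of 10 genes of GDI, the escort proteins and prenylation, 1 rose and 4 fell in MLL-AF9 cells, 5 fell in MLL-AF6 cells and 4 fell in MLL-AF1p cells. Rabggta, a subunit of the Rab prenyltransferase, fell in all 3 constructs, to 19.6 ± 1.44, 15.6 ± 1.13 and 12.3 ± 0.48 RPKM on MI-2-2, against 33.8 ± 11.2, 22.3 ± 2.35 and 19.2 ± 4.00 RPKM on DMSO (-0.72, -0.49 and -0.61). Rabac1, which helps Rab proteins off GDI, fell in MLL-AF9 cells to 114 ± 14.0 RPKM on MI-2-2, against 246 ± 8.61 RPKM on DMSO (-1.11, adjusted p = 1.87e-05). Of 35 exchange factor genes, 15 rose and 6 fell in MLL-AF9, 6 rose and 6 fell in MLL-AF6, and 9 rose and 3 fell in MLL-AF1p cells. Rin2, which activates Rab5, rose in all 3 (1.60, 2.10 and 1.74), to 5.94, 5.08 and 3.66 RPKM on MI-2-2, against 1.83, 0.789 and 0.751 RPKM on DMSO. Rab3il1, an exchange factor of Rab8, rose as well (1.10, 2.60 and 1.04), to 6.90, 7.74 and 2.50 RPKM, against 2.96, 0.895 and 0.980 RPKM. Median log2 fold changes of the exchange factors were 0.21, -0.04 and 0.13, and the MLL-AF6 value turned to 0.05 with median centring and 0.04 with quantile normalization, where 8 rose and 5 fell under either.

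Of 35 genes of GTPase activating proteins, 14 rose and 6 fell in MLL-AF9, 10 rose and 11 fell in MLL-AF6, and 9 rose and 7 fell in MLL-AF1p cells, and the split was 10 against 7 in MLL-AF6 cells with either scaling and 13 against 9 in MLL-AF9 cells with median centring. Tbc1d2, which inactivates Rab7, rose in all 3 constructs, to 15.3 ± 0.69, 16.3 ± 1.13 and 11.4 ± 0.16 RPKM on MI-2-2, against 6.93 ± 0.56, 5.33 ± 0.35 and 5.39 ± 0.72 RPKM on DMSO (1.09, 1.52 and 1.02). Tbc1d9 rose to 9.67 ± 2.63 RPKM in MLL-AF6 cells on MI-2-2, against 0.0781 ± 0.0160 RPKM on DMSO (4.10, adjusted p = 2.78e-12). It also rose in MLL-AF1p cells, to 1.53 RPKM against 0.0513 RPKM (1.88, adjusted p = 7.37e-08). In MLL-AF9 cells it rose at lower levels, to 0.253 RPKM against 0.0143 RPKM (0.55, adjusted p = 0.00472). Usp6nl, which acts on Rab5, fell in all 3 (-1.03, -0.90 and -0.64). Effectors of early and recycling endosomes, 21 genes, rose and fell in 9 and 4, 6 and 9, and 3 and 6 cases in the same order of constructs. The Rab5 effector Eea1, a tether of early endosomes, rose to 14.0 ± 0.79, 19.0 ± 1.88 and 12.9 ± 0.76 RPKM on MI-2-2, against 2.85 ± 0.21, 5.58 ± 0.03 and 6.87 ± 1.37 RPKM on DMSO (2.11, 1.68 and 0.88). Ehd1, which shapes recycling tubules, fell in all 3 (-1.24, -0.81 and -0.70).

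Effectors of late endosomes and lysosomes rose in 13 of 18 genes and fell in 2 in MLL-AF9 cells, rose in 8 and fell in 3 in MLL-AF6 cells, and rose in 8 and fell in 5 in MLL-AF1p cells. Their median log2 fold change was 0.36, 0.15 and 0.01, where all genes had -0.001, -0.16 and -0.06. The split was 9 against 1 in MLL-AF6 cells with quantile normalization and 8 against 2 or 8 against 3 in MLL-AF1p cells with median centring or quantile normalization. In MLL-AF9 cells it narrowed to 11 against 3 with median centring and 12 against 2 with quantile normalization. The MLL-AF9 median fell to 0.278 and 0.275 under these scalings. Plekhm2, an adaptor that links lysosomes to kinesin, rose to 23.8 ± 2.18, 28.7 ± 2.92 and 12.6 ± 0.41 RPKM on MI-2-2, against 13.6 ± 1.88, 13.4 ± 2.18 and 7.49 ± 0.16 RPKM on DMSO. Lrrk2, the kinase that phosphorylates Rab proteins, rose to 9.10 ± 1.24 RPKM in MLL-AF9 cells on MI-2-2, against 3.18 ± 0.28 RPKM on DMSO (1.38, adjusted p = 1.89e-08), and in MLL-AF6 cells by 0.55 (adjusted p = 3.25e-04), while MLL-AF1p cells had 8.31 RPKM on MI-2-2 and 8.45 RPKM on DMSO. Of 24 effectors of secretion and granules, 14 were tested, and 8 rose and 1 fell, 6 rose and 2 fell, and 6 rose and 1 fell in the 3 constructs. Under either scaling the split was 6 against 1 in MLL-AF6 cells. In MLL-AF9 cells it was 6 against 1 with median centring and 7 against 1 with quantile normalization. In MLL-AF1p cells quantile normalization gave 5 against 1. Myo5a, the motor that Rab27a recruits to granules, rose to 24.7 ± 0.93, 36.4 ± 5.39 and 18.3 ± 0.10 RPKM on MI-2-2, against 8.22 ± 1.38, 15.4 ± 1.13 and 9.92 ± 0.19 RPKM on DMSO (1.54, 1.21 and 0.85). Stx3, a granule SNARE protein, rose in all 3 (1.93, 2.24 and 1.59). Mlph, which joins Rab27a to Myo5a, fell in MLL-AF6 and MLL-AF1p cells (-1.27 and -0.78). Of 14 Golgi effectors, 5 rose and 2 fell, 3 rose and 4 fell, and 4 rose and 1 fell, with 4 against 2 in MLL-AF6 cells under either scaling and 3 against 2 in MLL-AF9 cells with median centring. The monocyte and neutrophil markers given above moved with treatment beside all these lists.

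The 12 members below the filter on low values were Rab3b, Rab3c, Rab9b, Rab15, Rab26, Rab27b, Rab30, Rab33a, Rab38, Rab39, Rab39b and Rab40b, and no test was made of them in the fit reported here. Rab26, of secretory granules, was the highest of them, at 0.452, 0.292 and 0.458 RPKM in MLL-AF9 cells on MI-2-2, against 1.72, 0.946 and 1.91 RPKM on DMSO, from 12 to 18 and 30 to 80 reads. Rab40b, like Rab40c a partner of ubiquitin ligases, had 0.194, 0.226 and 0.227 RPKM in MLL-AF9 cells on MI-2-2, against 1.03, 0.730 and 0.919 RPKM on DMSO, and 0 to 6 reads in each library of the other constructs. For both, the MLL-AF9 MI-2-2 libraries lay below the DMSO libraries, which is given as a description. Rab26 showed the same order in the other constructs. In MLL-AF6 cells it had 0.0678, 0.0315 and 0.0541 RPKM on MI-2-2, against 0.367, 0.196 and 0.521 RPKM on DMSO, from 1 to 3 and 8 to 21 reads. In MLL-AF1p cells it had 0.183, 0.0269 and 0.205 RPKM, against 0.480, 0.311 and 0.340 RPKM. Rab3b reached 0.298 RPKM at most, Rab33a 0.260 and Rab15 0.198, and the other 7 stayed under 0.1 RPKM in every library. Rab27b, the paralog of Rab27a, had 42 reads over all 18 libraries, and Rab38, the paralog of Rab32, 4 reads, against group means of at least 55.9 RPKM for Rab27a and 33.5 RPKM for Rab32.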

How the data were processed

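Polyadenylated RNA of 18 libraries was sequenced, and the deposited table holds RPKM values that the authors computed per gene and library. The build mm9 and the tools Bowtie2 2.0.0.7, CASAVA 1.8.2, edgeR and HTSeq are named per the submitters' processing notes, with no settings given. RPKM divides by gene length and by the library's counted reads, so a few abundant genes that move can shift all others. RPKM times length moved in steps of 1 read, estimated from low values in each library, and whole reads were recovered for 100.0% of values (tolerance 0.05), from 21180926 to 56304997 reads a library. The precision at low expression follows from those reads.

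Genes with at least 1 RPKM in at least 3 of 18 libraries were kept, 11238 of 23418, and log2(RPKM + 0.5) was fitted by limma 3.58.1 in R 4.3.3, with 6 group means, 12 residual degrees of freedom and a trended prior. P-values were adjusted by Benjamini-Hochberg over all genes tested. Each construct on MI-2-2 was compared with the same construct on DMSO, followed by an F test and pairwise tests of the difference of those responses, and by comparisons of the constructs on DMSO. The fit was tested on simulated data. The alternatives were a constant prior variance, a pseudocount of 0.1, no filter, quantile normalization, centring on medians, the replicate number as a block, limma's voom on recovered reads (all-gene calls of 6206, 6320 and 5791 with the partners AF9, AF6 and AF1p, against 6339, 6402 and 5103), each construct (or the DMSO libraries) alone, and leaving out libraries.

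The members and lists were chosen with earlier results of these data known. Values in every library are given for members with a 2-fold change, the 10 most abundant, the 8 with the widest range of response past the F test and the 3 largest DMSO differences on each side, and members outside these, such as Rab3a, Rab3d, Rab4b and Rab18, were added after their values were seen. Of other lists, genes were named from the 4 with the largest mean change. Of the 58 names, 57 matched later annotation (Rab7l1 as Rab29), and overlaps with other genes come from a GRCm38 annotation, later than mm9. Tables and figures were made with Python 3.11.15, pandas 2.3.3, numpy 2.4.6 and matplotlib 3.10.9.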

Additional observations from a re-analysis of the deposited data

Results flagged for a closer look

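The response to MI-2-2 differed between the 3 constructs in 22 Rab genes by limma's F test of the difference itself. The smallest adjusted p-values were those of Rab32 (adjusted p = 2.59e-05), Rab35 (1.77e-04), Rab4a (5.32e-04), Rab19 (7.81e-04) and Rab25 (8.56e-04). Among Golgi members the test also passed for Rab1b (adjusted p = 0.00589), Rab43 (0.00596), Rab2b (0.00859) and Rab6a (0.0114). Among endosomal members it passed for Rab11b (adjusted p = 0.00446), Rab11a (0.00542), Rab17 (0.00859), Rab21 (0.0111), Rab5b (0.0146), Rab14 (0.0192) and Rab31 (0.023). The others were Rab8b (adjusted p = 0.00708), Rab42 (0.0108), Rab10 (0.0259), Rab27a (0.0278), Rab44 (0.0289) and Rab7l1 (0.0376). These were 47.8% of the 46 members tested, and 52.8% of all genes passed the same test. In Rab1b and Rab35 the responses were called in opposite directions in MLL-AF6 and MLL-AF1p cells.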

How the results depend on the processing

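No Rab response that passed changed its sign under the alternatives run, but the balance of directions did turn with scaling: MLL-AF1p cells had 10 higher and 7 lower with median centring, against 8 and 11, and MLL-AF6 cells 16 and 6, or 15 and 7 with quantile normalization, against 12 and 11, where the median log2 fold change was 0.04 and 0.02, against -0.04. The median of all genes in MLL-AF6 cells also moved, to -0.076 with median centring and -0.097 with quantile normalization, against -0.159. In MLL-AF9 cells 13 members were higher and 10 lower with median centring, against 17 and 10, and the Rab median was 0.05, against 0.13. Early and recycling endosome members in MLL-AF6 cells numbered 6 higher and 1 lower with median centring and 5 and 2 with quantile normalization, against 2 and 5. Under all 29 alternatives 13 of 27 called responses remained in MLL-AF9 cells, 7 of 23 in MLL-AF6 cells and 4 of 19 in MLL-AF1p cells. Members lower with MI-2-2 in MLL-AF6 cells numbered 6 with median centring and 7 with quantile normalization, against 11, and in MLL-AF1p cells 6 with no filter and 7 with median centring, against 11. Fitting the 9 DMSO libraries alone left 15 members different between MLL-AF1p and MLL-AF6 cells, against 23.

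With libraries left out, the members higher and lower with MI-2-2 ranged from 9 to 18 and from 4 to 11 in MLL-AF9 cells, 4 to 14 and 4 to 13 with MLL-AF6, and 1 to 11 and 3 to 14 with MLL-AF1p. The F test passed 5 to 25 members, and the response differed in 1 to 17 (MLL-AF6 against MLL-AF9), 4 to 19 (MLL-AF1p against MLL-AF9) and 0 to 15 (MLL-AF1p against MLL-AF6). On DMSO, in the same order of pairs, 11 to 31, 21 to 31 and 7 to 26 members differed. The shares of all genes with libraries left out are not given here, so these ranges cannot be read as particular to Rab genes. Every lowest count came from leaving library 3 out of all 6 groups, an alternative chosen after seeing the data that leaves 2 libraries a group, and the cause was not tested. The count of 0 was limma's, where 5 members had an unadjusted p under 0.05; voom was run on all libraries only, and called 12.

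Same-numbered libraries of a construct correlated by 0.001 to 0.557 in their deviations from group means, over 0.1 in 5 of 9 pairs. Of the 18 libraries, 11 correlated best with their own number. Across constructs, MLL-AF9 and MLL-AF6 libraries on DMSO correlated by 0.627 for number 1, 0.599 for number 2 and -0.098 for number 3. The fit reported above did not use the numbers, so an effect shared by number would stay in its scatter. With the replicate number as a block, 19 rose and 11 fell in MLL-AF9 cells, 13 and 14 in MLL-AF6 cells, and 11 and 14 in MLL-AF1p cells, and the F test passed 29. The shares of all genes under the block are not given here, so these counts cannot be read as particular to Rab genes. Under the block 13 more responses passed: Rab9 and Rab20 (adjusted p = 0.0438 and 0.014) and Rab7l1 (0.0388) in MLL-AF9 cells, Rab9, Rab2b, Rab27a and Rab37 (0.00689, 0.0455, 0.0275 and 0.0419) in MLL-AF6 cells, and Rab20, Rab22a, Rab31, Rab34, Rab36 and Rab44 (0.0145, 0.0423, 0.0192, 0.0237, 0.047 and 0.0128) in MLL-AF1p cells. Depth limits members with few reads, and MLL-AF1p libraries were sequenced more deeply.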
